A study of Mus musculus with 2 samples.

Results

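The cells described here were adrenal gland macrophages (AGMs) with high MHC class II transcripts in which Mmp12, Slc40a1 and Hpgds were the leading subset genes. Live CD45+ leukocytes had been sorted from the adrenal glands of C57BL/6 mice aged 7 weeks, and 1 library was made per sex. The labels give no transgene and no treatment. How many mice contributed to a library was not given, and the spread between animals is therefore unknown. Of 6648 deposited barcodes, 440 were Mmp12/Slc40a1/Hpgds cells, 235 female and 205 male.

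The cells were chosen on raw counts of unique molecular identifiers (UMIs). A barcode needed at least 200 genes and at most 15% mitochondrial UMIs. This departs from the study's methods, which set a far lower ceiling. A ceiling of 12 mitochondrial UMIs per 1000 would keep 333 of 3963 female and 366 of 2685 male barcodes. Of members it would keep 7 of 235 female and 18 of 205 male. The study reports far more cells left after all its filters than this, so its stated ceiling may be a different quantity. A barcode then needed at least 5 UMIs of C1qa, C1qb and C1qc together, at most 2 of Lyve1, Folr2, Cbr2 and Fcna together, fewer than 5 of Retnla, none of Cd79a or Cd3e, and more than 10 UMIs per 1000 of Cd74, H2-Aa, H2-Ab1 and H2-Eb1 combined. This gate kept 544 female and 638 male cells. A member had at least 2 UMIs of Mmp12, Slc40a1 and Hpgds together, and more of them than of Tmem119, Col14a1 and Zmynd15 together and than of Cxcl14. Gated cells in which the Tmem119, Col14a1 and Zmynd15 sum led in the same way, 70 female and 126 male, served for comparison and are called Tmem119-set cells. Cxcl14 led in 24 female and 15 male cells, and no set led in 215 and 292. The leading genes chose the members, so their values are a description.

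Tissue macrophages clear dead cells, take up lipoproteins and recycle iron from heme, and an organ usually holds several macrophage states side by side. The leading genes belong to different branches of this work. Mmp12 encodes macrophage elastase, a secreted metalloproteinase. Slc40a1 encodes ferroportin, the exporter that returns iron from macrophages to plasma. Hpgds encodes hematopoietic prostaglandin D synthase, which makes prostaglandin D from cyclooxygenase products. Trem2, a lipid-sensing receptor of phagocytes, and Ms4a7, a membrane-spanning protein of mature macrophages, complete the label. In mm10 the genes lie at chr9:7344381-7369499 (Mmp12), chr1:45908068-45926523 (Slc40a1), chr6:65117293-65144908 (Hpgds), chr17:48346401-48354147 (Trem2) and chr19:11321039-11336146 (Ms4a7).

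The libraries held 16218309 female and 9512670 male UMIs, with medians of 3432 and 2777 per barcode. Members were deeper than that, with medians of 4451 UMIs in females and 4877 in males, against 5420 and 4455 in Tmem119-set cells and 2460 and 1768 in gated cells that no set led. Both libraries carried the sex-linked transcripts of their labels, with 1950 Xist UMIs in female and 0 in male members, and 0 and 158 UMIs of Y-linked genes. Of the barcodes, 2 occurred in both libraries and 0 of them was a member. Of 10 macrophage markers checked, C1qa, C1qb and C1qc were genes of the gate and had to be present, and the other 7 were detected too. The 10 together had a summed level, in part set by the gate, of 18055 CPM (UMIs per 1000000 UMIs of the group) in female and 19251 in male members and of 17790 and 20940 CPM in Tmem119-set cells. With 1 library per sex no test was run and no p-value is given. Intervals are 95% intervals of counting error only.

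Among MHC class II-high AGMs, Mmp12/Slc40a1/Hpgds cells were the largest of the 3 groups that the rule gave a lead, in both sexes. That order depends on the rule, which sets sums of 3 genes against Cxcl14 alone. Cells that no set led were 39.5% of gated cells in females and 45.8% in males. Members made up 43.2% of gated cells in females (235 of 544, exact binomial interval 39.0 to 47.5) and 32.1% in males (205 of 638, 28.5 to 35.9). The difference was 11.1 percentage points (Newcombe interval 5.53 to 16.5). Over members and Tmem119-set cells together, members were 77.0% in females and 61.9% in males. The direction depended on the denominator. Members were 6.16% of all female and 8.19% of all male cells that passed the first filters, and 24.8% and 22.8% of cells with at least 5 C1q UMIs, a difference of 1.93 points with an interval from −1.96 to 5.81.

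The share of members rose with the depth of a cell. Membership needs UMIs of the leading genes, and what lay behind the trend was not tested. In females, members were 18.2% of gated cells under 2000 UMIs, 42.3% from 2000 to 4000, 51.3% from 4000 to 8000 and 70.0% above 8000. In males the same bands held 17.8%, 28.3%, 46.8% and 54.7%. The female minus male difference was 0.385 points under 2000 UMIs (−7.75 to 9.70), 14.0 from 2000 to 4000 (3.92 to 23.6), 4.44 from 4000 to 8000 (−5.50 to 14.3) and 15.3 above 8000 (−3.38 to 32.4), so that 3 of the 4 intervals included 0. A cell in which no set led cannot be told apart from a member sampled too shallowly.

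**Figure D1:**
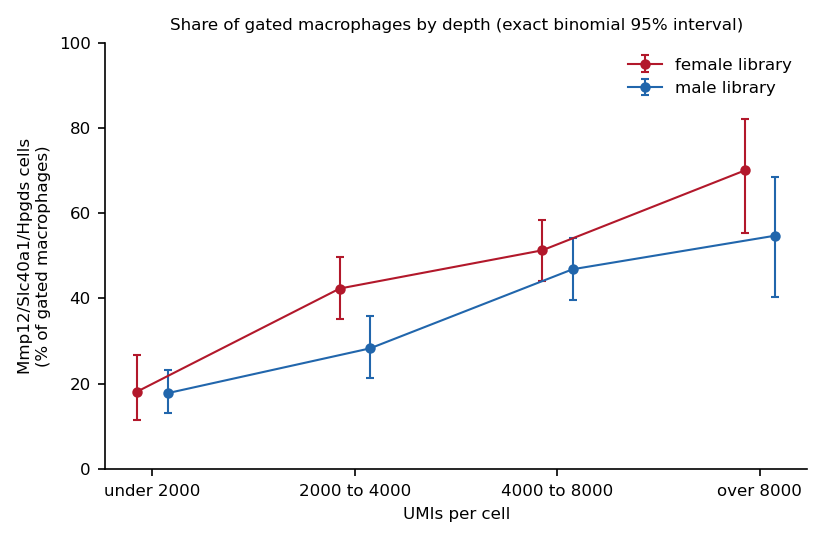
Share of gated macrophages that were Mmp12/Slc40a1/Hpgds cells (y axis, percent) in 4 bands of UMIs per cell (x axis), female and male library, with exact binomial 95% intervals. The share climbs from 18.2% to 70.0% in the female and from 17.8% to 54.7% in the male library.

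Few members had a UMI of every leading gene. Mmp12 had a UMI in 157 female and 142 male members, Slc40a1 in 123 and 97, and Hpgds in 163 and 148. Only 43 female (18.3%) and 36 male (17.6%) members had all 3 genes, whereas 122 and 110 had 2 and 70 and 59 had 1. Members with all 3 were deeper, with medians of 6294 and 6317.5 UMIs against 4451 and 4877 over all members. Medians were 4312 and 2390 with Mmp12 alone, 3353 and 3354 with Slc40a1 alone, and 2350 and 4556 with Hpgds alone. A gene without a UMI may have been missed, and the part of depth was not tested. The median leading sum was 5 UMIs in both libraries and the highest 40 in the female and 50 in the male library. Mmp12 was unevenly spread, with a median of 2 UMIs per member and a maximum of 39 in females and 50 in males, while Hpgds did not exceed 6 and 9 UMIs in any member. The 5 highest cells held 15.2% and 22.2% of the Mmp12 UMIs of members.

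The threshold ran through a continuous range. A leading sum of exactly 2 was found in 48 female and 39 male members, and a sum of 10 or more in 57 and 42. Just outside, 46 female and 50 male gated cells had a sum of 1 that was still above the other sets, and 51 and 67 had 2 or more but not above the other sets. Cells just inside with a sum of 2 had Ms4a7 at 1432 CPM in females and 996 in males. Cells just outside with a sum of 1 had 906 and 608 CPM. Trem2 was at 346 CPM in females and 276 in males with a sum of 2, and at 364 and 254 with a sum of 1.

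The leading genes were detected together somewhat more often than their separate shares would give in 5 of 6 pairs. When every gated cell was reduced to 1000 UMIs drawn at random, cells with both Mmp12 and Slc40a1 numbered 22 in females and 15 in males, which is 1.31 and 1.27 times the number expected from the separate shares. The ratio was 1.33 and 1.32 for Mmp12 with Hpgds, and 0.999 and 1.29 for Slc40a1 with Hpgds. Pairs across the sets went both ways. Of 12 such pairs, 4 were above 1 in both libraries, 3 below 1 in both and 5 on different sides. Slc40a1 with Col14a1 gave 1.37 in females and 1.91 in males, above every pair of leading genes. Mmp12 with Zmynd15 gave 1.10 and 1.45, Mmp12 with Tmem119 0.67 and 0.91, and Slc40a1 with Cxcl14 0.35 and 1.22. The cells sharing any such pair were few, at most 29, so ratios of this size are weak. The label here names the leading genes of a range of cells.

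By construction the leading genes were high in members. Mmp12 stood at 812 CPM in female members (762 to 864) and at 781 in male members (728 to 837), against 106 and 149 in Tmem119-set cells. Slc40a1 stood at 334 and 322 CPM against 24.2 and 45.3, and Hpgds at 290 and 342 against 121 and 158. Of members reduced to 1000 UMIs, 41.8% in females and 43.8% in males had an Mmp12 UMI, compared with 10.0% and 12.6% of Tmem119-set cells. The share was 0.00% of Cd79a+ cells, a B cell class that should lack it (median depth 2199 UMIs in females and 1744 in males). That class was also required to hold no C1q UMI, so its share is in part set by its definition. Without that reduction the shares in members were 66.8% and 69.3%.

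Trem2 and Ms4a7 were not part of the rule. Trem2 was at 343 CPM in female members and 244 in Tmem119-set cells, a ratio of 1.41 (1.13 to 1.77), and at 300 and 176 CPM in males, a ratio of 1.70 (1.36 to 2.14). Ms4a7 was at 1445 and 814 CPM in females, a ratio of 1.77 (1.58 to 2.00), and at 1291 and 793 CPM in males, a ratio of 1.63 (1.46 to 1.81). Both ratios were above 1 in each library, with intervals of counting error that leave out the spread between cells. The label that holds these genes was chosen with earlier results of these data known, so the ratios are a description. After reduction to 1000 UMIs, Trem2 was detected in 26.2% (females) and 23.8% (males) of members, compared with 17.1% and 15.1% of Tmem119-set cells. The intervals of these shares overlapped (20.6 to 32.5 against 9.18 to 28.0 in females).

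Trem2 did not set members apart from every other AGM. It was at 366 CPM in female and 338 CPM in male MHC class II-low macrophages, with ratios of members to those cells of 0.94 (0.81 to 1.09) and 0.89 (0.65 to 1.23). In female gated cells that no set led it was at 330 CPM, against 179 in males. It was lowest in macrophages with the Lyve1 gene set, at 90.8 and 95.5 CPM, and in Retnla+ macrophages, at 137 and 31.4 CPM. Ms4a7 was higher in members than in MHC class II-low macrophages in both libraries, 2.57-fold in females (2.33 to 2.85) and 1.76-fold in males (1.44 to 2.17). In the male MHC class II-low group of 40 cells, Mmp12 reached 1578 CPM, but all of its 224 UMIs came from 5 cells. Slc40a1 was also found outside macrophages, at 525 CPM in female and 327 CPM in male S100a8/S100a9-high cells, and Hpgds at 264 and 284 CPM in Cpa3/Mcpt4/Cma1 cells, a class with mast cell genes.

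**Figure D2:**
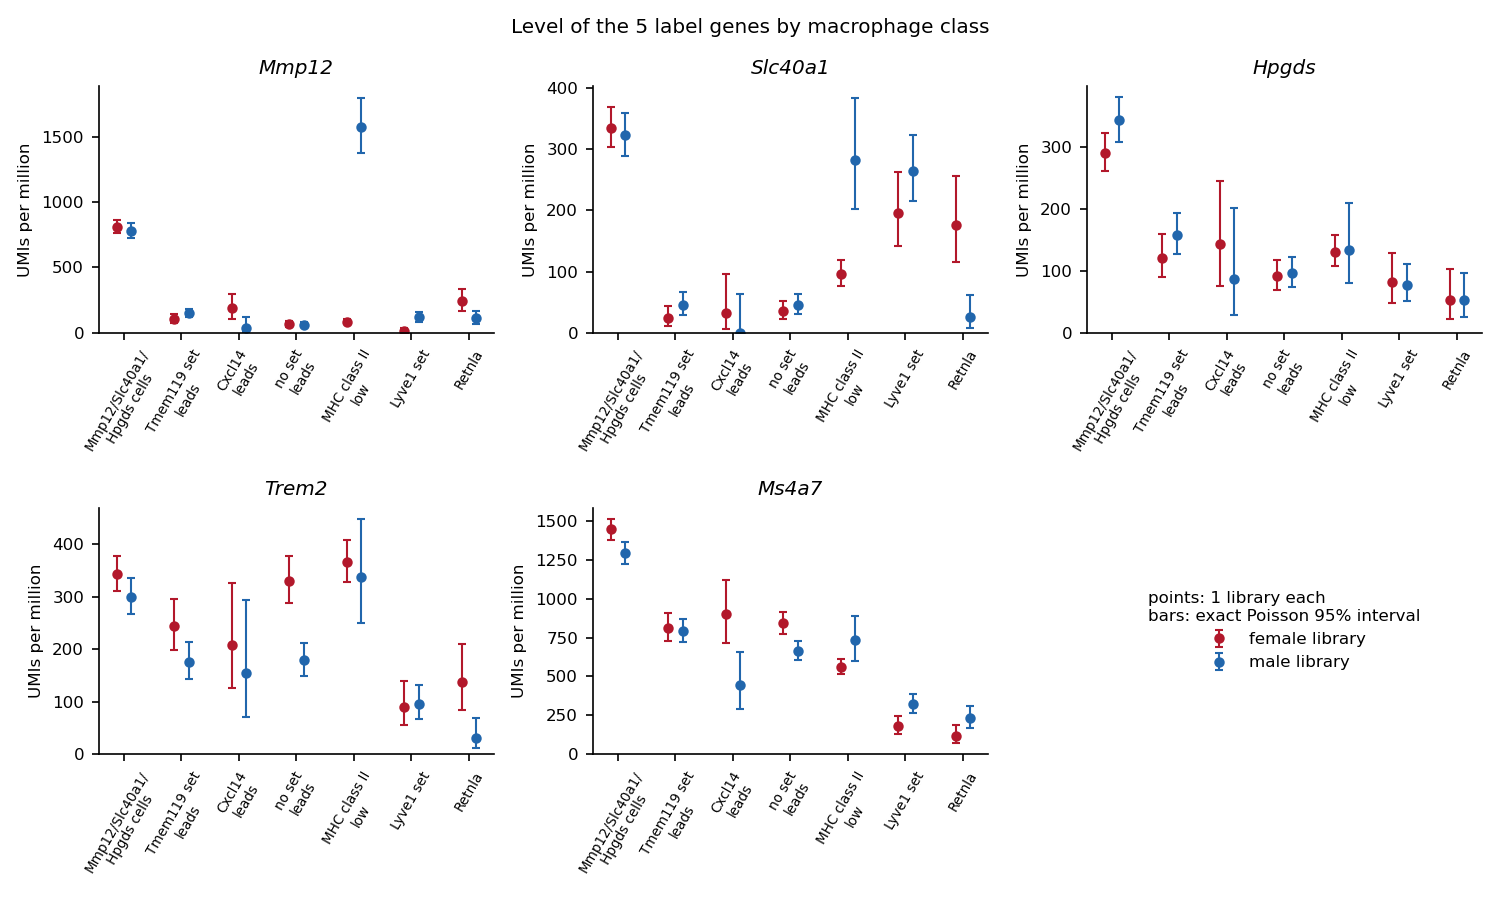
Levels of Mmp12, Slc40a1, Hpgds, Trem2 and Ms4a7 (y axes, CPM, linear from 0) in 7 macrophage classes (x axes) of the female and male library, with exact Poisson 95% intervals. Ms4a7 is highest in Mmp12/Slc40a1/Hpgds cells in both libraries (1445 and 1291), whereas Trem2 in these cells (343 and 300) lies beside MHC class II-low macrophages (366 and 338).

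Differences between members and Tmem119-set cells across the transcriptome were small. Of 4315 genes with at least 50 UMIs in the female library, 27 (0.626%) were at least 2-fold higher in members and 11 (0.255%) at least 2-fold lower, on the ratio of CPM plus 10. In the male library these numbers were 34 of 4310 (0.789%) and 7 (0.162%). Of 3983 genes compared in both libraries, 5 (0.126%) passed 2-fold higher in both, and 0 (0.0%) passed 2-fold lower. With no size required, 1248 genes (31.3%) were higher in both and 1004 (25.2%) lower in both. Across genes the log2 ratios of the libraries correlated with a Pearson r of 0.20 over all 3983 genes and 0.44 over 656 genes with at least 200 UMIs in the members of each library. Genes are not independent replicates, and no test was made of these values.

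The 5 genes were S100a8, S100a9, Plac8, Fnip2 and Atf3, and the first 3 rested on a handful of cells. S100a8 and S100a9, calprotectin subunits of neutrophils and monocytes, had log2 ratios of 3.76 and 3.62 in females and 2.07 and 2.07 in males. At least 94.7% of their UMIs lay in 5 cells per library, and 1 member per library held 10 or more of them. Without those members, S100a8 had a log2 ratio of 0.16 in females (8 against 2 UMIs) and −0.30 in males, and S100a9 of −0.06 in females and −0.02 in males. Plac8, a monocyte gene, had 84.7% of its female and 92.4% of its male member UMIs in 5 cells. Neutrophil markers as a list summed to 460 CPM in female members, with 90.8% in 5 cells, and to 183 CPM in males, with 80.9%, against 41.1 and 35.3 CPM in Tmem119-set cells. The part of such cells in the S100a8 and S100a9 values was not tested beyond leaving them out.

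Fnip2 and Atf3 were spread more widely, but against all other gated cells neither was 2-fold higher in both libraries. The 1 gene that was is a neutrophil marker. Fnip2, a partner of folliculin in nutrient sensing at the lysosome, was at 47.2 against 14.5 CPM in females (3.26-fold, 1.41 to 9.23) and at 52.6 against 18.5 CPM in males (2.85-fold, 1.47 to 6.04). Atf3, a stress-induced transcription factor, was at 68.3 against 9.66 CPM in females (7.07-fold, 2.66 to 26.6) and at 61.4 against 25.2 CPM in males (2.44-fold, 1.37 to 4.61). Of the Atf3 UMIs of members, 44.0% in females and 57.1% in males lay in 5 cells. Atf3 had a UMI in 15.3% and 14.1% of members and Fnip2 in 17.0% and 22.4%.

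Next in rank, on the smaller log2 ratio of the libraries, came Igf1, Pmp22, Tent5c, Cd44, Arhgap19, Id2 and Paox. Igf1, a growth factor made by many tissue macrophages, was at 173 against 82.1 CPM in females (2.11-fold, 1.46 to 3.13) and at 133 against 52.1 CPM in males (2.55-fold, 1.71 to 3.89). Cd44, the hyaluronan receptor, was at 177 against 89.4 CPM in females and at 180 against 95.7 CPM in males, with ratios of 1.98 (1.39 to 2.88) and 1.88 (1.39 to 2.58). Id2, an inhibitor of helix-loop-helix transcription factors, had ratios of 1.84 (1.40 to 2.45) and 1.96 (1.41 to 2.78). Log2 ratios were 0.92 and 0.94 for Pmp22, 0.86 and 1.32 for Tent5c, 0.84 and 1.13 for Arhgap19, and 0.84 and 1.57 for Paox, a polyamine oxidase. The intervals of all these ratios excluded 1 in both libraries. Against all other gated cells the differences were smaller for Cd44, at 1.39 (1.12 to 1.72) and 1.33 (1.08 to 1.64), and for Id2, at 1.37 (1.16 to 1.63) and 1.12 (0.90 to 1.39). With every gated cell reduced to 1000 UMIs, the 281 female cells with none of the leading genes had Id2 at 291 CPM, above the 173 CPM of the 173 cells with 1 of them.

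Genes lower in members lay closer to 1. Pmepa1, a negative regulator of TGF-beta signaling, was at 230 against 328 CPM in females (0.70-fold, 0.57 to 0.87) and at 260 against 417 CPM in males (0.62-fold, 0.52 to 0.75). Ms4a4c was at 123 against 210 CPM in females and at 138 against 200 CPM in males, with ratios of 0.58 (0.45 to 0.77) and 0.69 (0.54 to 0.89). Hsph1, a heat shock protein, had log2 ratios of −0.77 and −0.82, and Ndufs8, a subunit of respiratory complex I, of −0.57 and −0.56. Fbl, the nucleolar methyltransferase fibrillarin, had −0.56 and −0.49. The remaining genes of this rank were Mgst3, Nfe2l1, Rps19bp1, Vezf1, Pald1, Srm and Rars. Each of these had an interval that included 1 in at least 1 library.

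Genes of lipid handling and of the Trem2-linked macrophage state were mostly higher in members. Of 25 such genes compared in both libraries, 20 were higher in both and 1 lower in both, with a median log2 ratio of 0.50 in females and 0.38 in males, compared with −0.00 and 0.05 over all genes and 31.3% of all genes higher in both. Past 2-fold were 1 gene in the female and 4 in the male library, where 0.626% and 0.789% of all genes were. The list had been assembled with earlier results of these data known, and no test was made of it.

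That list included genes of the lysosome and of lipid breakdown. Ctsd, the aspartic protease cathepsin D, was at 761 against 425 CPM in females (1.79-fold, 1.52 to 2.11) and at 788 against 282 CPM in males (2.79-fold, 2.36 to 3.32). Ctsb, a cysteine cathepsin, was at 2241 against 1577 CPM in females (1.42-fold, 1.30 to 1.55) and at 2884 against 1794 CPM in males (1.61-fold, 1.50 to 1.73). Lgals3, the lectin galectin-3, had ratios of 1.76 (1.55 to 2.01) and 1.86 (1.67 to 2.07). After equal depth, however, Lgals3 was detected in 50.2% of female members and 42.9% of Tmem119-set cells, and in 51.9% and 51.3% in males. Lipa, the lysosomal acid lipase, had ratios of 1.44 (1.20 to 1.74) and 1.35 (1.16 to 1.57). Lpl, lipoprotein lipase, had 1.43 (1.22 to 1.69) and 1.22 (1.07 to 1.39).

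Other genes of the list handle cholesterol efflux and storage, and for several of them the interval included 1 in a library. Abca1, the cholesterol exporter to lipid-poor apolipoprotein A-I, was at 140 against 50.7 CPM in females (2.76-fold, 1.75 to 4.57) and at 127 against 75.6 CPM in males (1.68-fold, 1.19 to 2.41). Abcg1, which exports cholesterol to HDL, had ratios of 1.61 (1.13 to 2.33) and 1.33 (0.98 to 1.81). Soat1, which esterifies cholesterol for storage, had 1.49 (1.13 to 2.00) and 1.20 (0.95 to 1.51). Nceh1, a cholesteryl ester hydrolase, had 1.38 (0.85 to 2.34) and 2.46 (1.58 to 3.97). Plin2, a coat protein of lipid droplets, had 1.30 (0.97 to 1.77) and 1.71 (1.33 to 2.21). Cd9, a tetraspanin, had 1.44 (1.16 to 1.79) and 1.63 (1.29 to 2.08). Apoe, at 31663 CPM in female and 24340 CPM in male members, differed by 1.12-fold (1.09 to 1.14) and 1.08-fold (1.05 to 1.10). Apoc2 was at 90.3 against 145 CPM in females and at 49.7 against 40.3 CPM in males.

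Several genes that define lipid-associated macrophages elsewhere were nearly absent. Gpnmb had 3 UMIs in female members and 37 in male members. Spp1, osteopontin, had 0 and 25 UMIs, and the shares of male members with a UMI were 0.976% for Gpnmb and for Spp1. Fabp5, a fatty acid carrier, had log2 ratios of 0.65 and 1.04, yet 83.3% and 77.2% of its member UMIs lay in 5 cells.

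**Figure D3:**
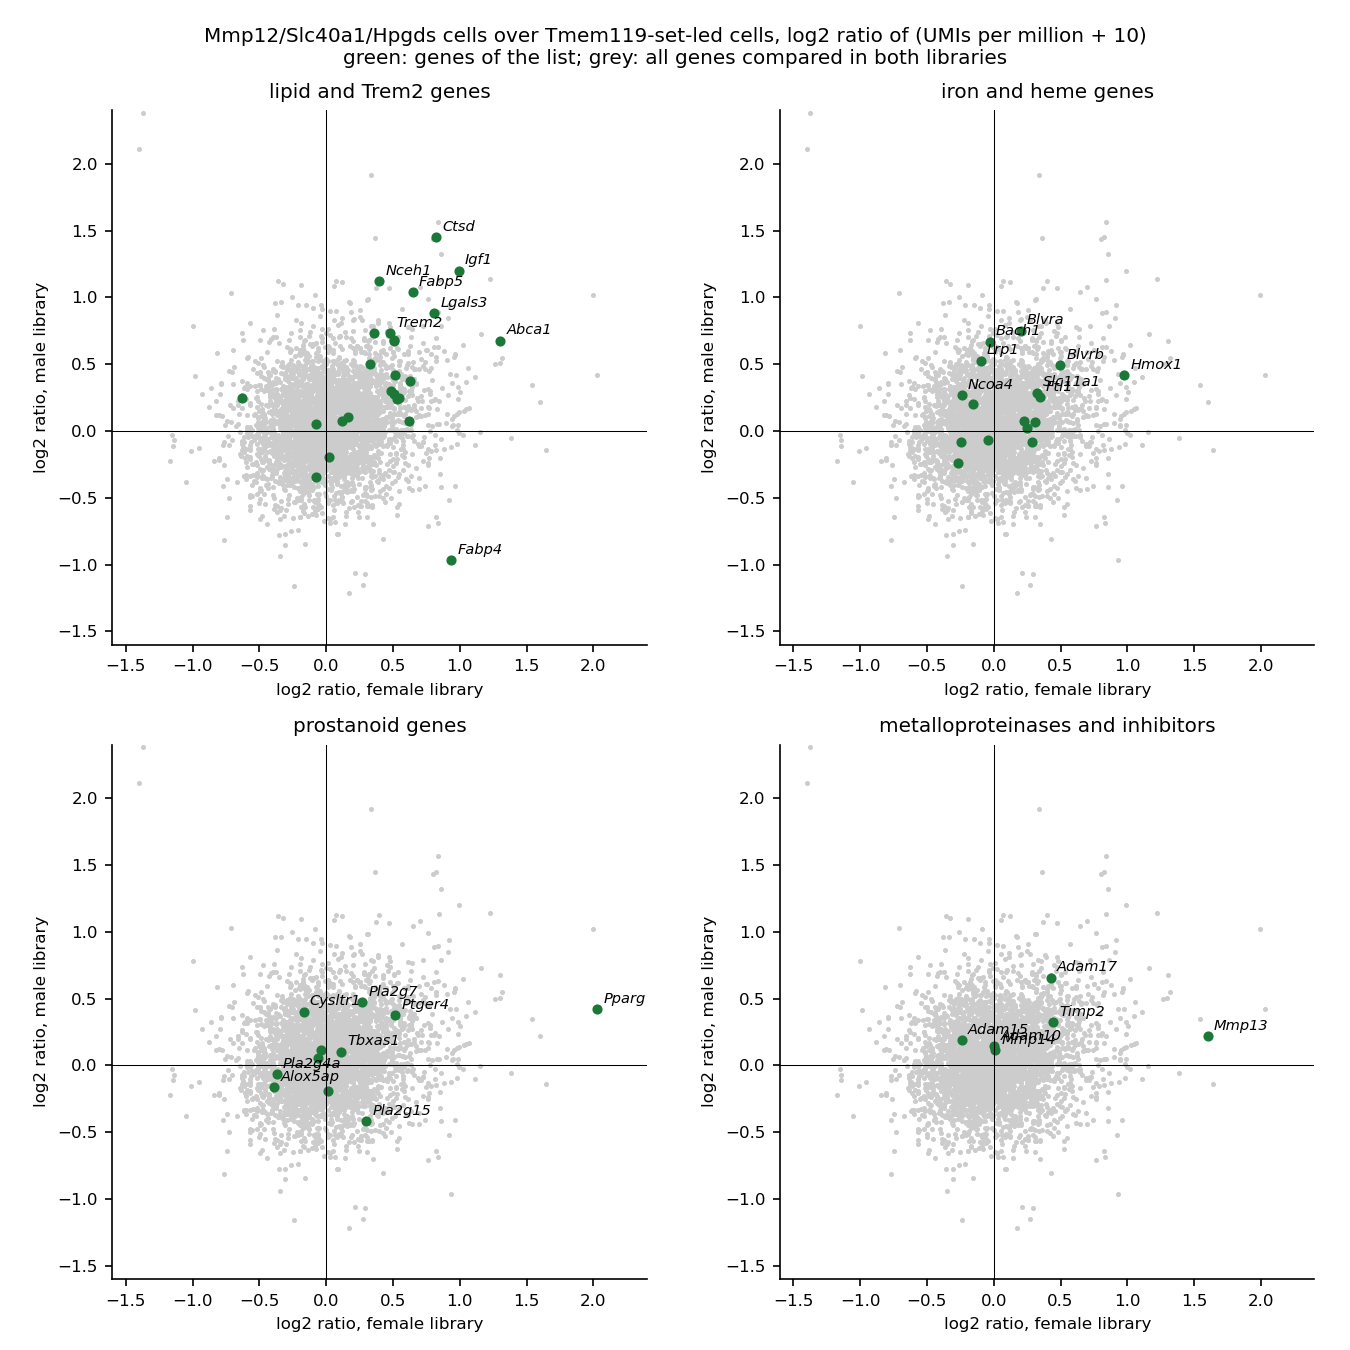
Log2 ratio of (CPM + 10) of Mmp12/Slc40a1/Hpgds cells over Tmem119-set cells in the female (x axis) and male (y axis) library, with 3983 compared genes less the genes of the rule in grey and genes of 4 lists in green. Of the lipid and Trem2 genes, 20 of 25 lie above 0 in both libraries, and 3 genes (Plac8, S100a8, S100a9) fall outside the plotted range.

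Slc40a1 exports iron, so genes of iron and heme were examined next. Of 16 compared in both libraries, 8 were higher in both and 3 lower in both, against 31.3% and 25.2% of all genes, with medians of 0.21 in females and 0.23 in males, and 0 passed 2-fold in either library. Hmox1, heme oxygenase-1, was at 147 against 70.0 CPM in females (2.10-fold, 1.41 to 3.23) and at 88.7 against 63.8 CPM in males (1.39-fold, 0.94 to 2.09). In females, 51.4% of its UMIs lay in 5 members. Blvrb, a biliverdin reductase downstream of heme breakdown, was the most even of the list, at 297 against 208 CPM in females (1.43-fold, 1.13 to 1.83) and 335 against 235 CPM in males (1.43-fold, 1.17 to 1.75). Blvra had ratios of 1.17 (0.78 to 1.79) and 1.82 (1.19 to 2.84). Ftl1, the ferritin light chain, was 1.27-fold (1.21 to 1.33) and 1.19-fold (1.14 to 1.24) higher, and Fth1, the heavy chain, 1.17-fold (1.13 to 1.21) and 1.05-fold (1.02 to 1.09).

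Other iron genes did not separate the cells. Slc11a1, the iron transporter of phagosomes, had ratios of 1.26 (0.99 to 1.63) and 1.23 (0.997 to 1.53). Trf, transferrin, was at 454 against 507 CPM in females and at 393 against 341 CPM in males. Fbxl5, an iron-sensing ubiquitin ligase subunit, had log2 ratios of −0.27 and −0.24, with intervals that included 1. Cd163, the hemoglobin scavenger receptor, had only 7 and 8 UMIs in all members.

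Hpgds acts on the product of the cyclooxygenases. Of 11 prostanoid genes compared in both libraries, 4 were higher in both and 2 lower in both, near the shares over all genes (31.3% and 25.2%), with medians of 0.06 in females and 0.10 in males. Ptgs1, cyclooxygenase-1, was at 159 against 157 CPM in females and at 152 against 175 CPM in males. Ptgs2 and Ptgds had 0 UMIs in members of either library, where a floor of 3 UMIs corresponds to 2.44 CPM in females and 2.92 CPM in males. Tbxas1, thromboxane synthase, had ratios of 1.09 (0.77 to 1.57) and 1.08 (0.80 to 1.46). Hpgd, which inactivates prostaglandins, had 0.97 (0.81 to 1.16) and 1.08 (0.91 to 1.30). Alox5ap, which feeds the leukotriene branch, was at 495 against 652 CPM in females (0.76-fold, 0.66 to 0.88) and at 378 against 425 CPM in males (0.89-fold, 0.76 to 1.05).

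Pparg, a nuclear receptor bound by fatty acids and by metabolites of prostaglandin D, had too few UMIs for a firm ratio. It had 50 UMIs in female members and 1 in female Tmem119-set cells, at 40.7 against 2.42 CPM and a ratio of 16.8 with an interval from 2.89 to 678. In males it had 38 and 15 UMIs, at 37.0 against 25.2 CPM and a ratio of 1.47 (0.79 to 2.88). Pla2g7, the phospholipase that inactivates platelet-activating factor, had ratios of 1.21 (0.99 to 1.49) and 1.41 (1.15 to 1.74).

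Metalloproteinase genes other than Mmp12 showed 5 of 6 compared genes higher in both libraries and 0 lower, against 31.3% and 25.2% of all genes, with medians of 0.22 in each. Mmp13, a collagenase whose gene lies on the same chromosome at chr9:7272514-7283331, differed between the libraries. It was at 225 against 67.6 CPM in females (3.33-fold, 2.25 to 5.11) and at 273 against 233 CPM in males (1.17-fold, 0.95 to 1.44). As with Pparg, the level in members was alike and the level in Tmem119-set cells was not. Adam17, which sheds TNF from the cell surface, had ratios of 1.39 (0.95 to 2.08) and 1.65 (1.18 to 2.33). Timp2, a metalloproteinase inhibitor, had 1.39 (1.04 to 1.87) and 1.26 (0.99 to 1.62). Mmp14 had ratios of 1.01 and 1.10 and Adam10 of 1.004 and 1.12, all with intervals that included 1.

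Among other gene groups, phagocytic receptors had 9 of 19 genes higher in both libraries and 4 lower, against 31.3% and 25.2% of all genes. Their median was 0.19 in females and −0.05 in males. Mertk, a receptor for apoptotic cells, was at 122 against 58.0 CPM in females (2.10-fold, 1.36 to 3.39) and at 113 against 73.9 CPM in males (1.53-fold, 1.07 to 2.22). Clec4n, which encodes dectin-2, had ratios of 2.29 (1.62 to 3.30) and 1.34 (1.03 to 1.77). Cd300a, an inhibitory receptor for phosphatidylserine, had 1.58 (1.16 to 2.18) and 1.54 (1.22 to 1.97). The 4 lower in both were Itgb5, Clec4a2, Fcgr2b and Fcgr4, with log2 ratios from −0.18 to −0.01 in females and from −0.30 to −0.05 in males. Of 27 lysosomal genes, 19 were higher in both and 2 lower in both, against 31.3% and 25.2% of all genes, and their medians were 0.15 in females and 0.23 in males. This list overlaps the list of lipid and Trem2 genes, with Ctsd in both, so the counts of these lists are not separate results. Npc2, a carrier of lysosomal cholesterol, had ratios of 0.97 (0.86 to 1.08) and 1.06 (0.95 to 1.17).

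Of 5 Ms4a genes compared in both libraries, Ms4a7 was higher in both, and the other 4, Ms4a4c, Ms4a6b, Ms4a6c and Ms4a6d, were lower in both, where 31.3% of all genes were higher and 25.2% lower. Ms4a6c had ratios of 0.86 (0.76 to 0.97) and 0.85 (0.76 to 0.95). For Ms4a6b and Ms4a6d the interval excluded 1 only in females, at 0.78 (0.66 to 0.91) and 0.75 (0.62 to 0.91). Of 21 transcription factor genes compared in both libraries, 9 were higher in both and 1 lower in both, against the same shares, with medians of 0.11 in females and 0.19 in males. Maf, a macrophage factor, had 1.18 (1.01 to 1.37) and 1.14 (0.998 to 1.31).

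Genes of the cytosolic ribosome were lower by small amounts. Of 81 ribosomal protein genes, 72 were lower in members in both libraries and 2 higher, against 25.2% and 31.3% of all genes, with medians of −0.13 in each and 0 past 2-fold. Of 19 genes of oxidative and glycolytic metabolism, 8 were lower in both and 2 higher, read against the same shares. Median depth was 4451 UMIs in members against 5420 in females and 4877 against 4455 in males, and its part in these values was not tested. Cx3cr1, the fractalkine receptor of many resident macrophages, had ratios of 0.83 (0.73 to 0.93) and 0.92 (0.83 to 1.02), and Ccr2, the receptor of monocytes that enter tissue, 1.01 (0.78 to 1.34) and 1.30 (0.98 to 1.76).

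Of 9 chemokine genes compared in both libraries, 3 were higher in both and 1 lower in both, against 31.3% and 25.2% of all genes, with medians of 0.25 in females and −0.14 in males. Ccl5 and Ccl6 were among those higher in both, with ratios of 1.20 (1.03 to 1.39) and 2.11 (1.30 to 3.55) for Ccl5 and 1.24 (0.98 to 1.59) and 1.27 (1.04 to 1.57) for Ccl6. Ccl5 is also made by natural killer cells, whose 7 markers summed in males to 81.8 CPM in members and 31.9 CPM in Tmem119-set cells and in females to 499 and 630 CPM. Without cells of 3 or more NK UMIs, the log2 ratio of Ccl5 was 0.35 in females and 0.00437 in males, and both intervals included 1. Cxcl16 was lower in both, at 0.92 (0.80 to 1.06) and 0.89 (0.79 to 1.01). Ccl4 was at 390 against 191 CPM in females (2.05-fold, 1.61 to 2.63) and at 325 against 329 CPM in males (0.99-fold, 0.83 to 1.19). In members, 59.0% and 41.6% of its UMIs lay in 5 cells. Ccl12 was at 74.8 against 65.2 CPM in females (1.15-fold, 0.74 to 1.83) and at 78.9 against 196 CPM in males (0.40-fold, 0.30 to 0.54).

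The members differed among themselves according to which gene led. Cells with Mmp12 as their only leading gene, 31 female and 27 male, were set against cells with Slc40a1 or Hpgds but no Mmp12, 78 female and 63 male. The Mmp12-only cells had medians of 4312 and 2390 UMIs, against 4451 and 4877 over all members, and the part of depth was not tested. Of 974 genes compared, 1 (0.103%) was at least 2-fold higher in both libraries and 9 (0.924%) at least 2-fold lower. The 8 highest genes by rank were Glipr1, Fxyd5, S100a10, Lsp1, Txn1, Crip1, Gpi1 and Ckb, and the 8 lowest S100a9, S100a8, Selenop, Vcam1, Nrp1, Tspan13, Tmcc3 and Fli1. The S100a8 and S100a9 UMIs of members lay mostly in 1 cell per library, as given above. Selenop, the selenium transport protein, was at 390 CPM in Mmp12-only cells and 1145 CPM in cells without Mmp12 in females, and at 306 and 1049 CPM in males.

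After that result was seen, the cells were split more narrowly, into members with Slc40a1 and no Mmp12 (55 female, 46 male) and members with Mmp12 and no Slc40a1 (89 female, 91 male). The cells with Slc40a1 were the shallower, with medians of 3874 and 3951 UMIs against 5055 and 5149. Of 1876 genes compared, 9 (0.48%) were at least 2-fold higher with Slc40a1 in both libraries and 4 (0.213%) at least 2-fold lower. The 9 were Adgre5, Itga6, Kcnj10, Lpar6, Ly96, Ms4a7, Nrp1, Selenop and Vcam1, and the 4 were Mgl2, Mlec, Psmc5 and Sap30. The groups are smaller here than in the comparison with Tmem119-set cells, and fewer genes reached the minimum of UMIs.

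Selenop, Vcam1, Nrp1 and Ms4a7 were the genes with the clearest excess on the Slc40a1 side. Selenop was at 1228 against 364 CPM in females (3.38-fold, 2.81 to 4.07) and at 1266 against 357 CPM in males (3.55-fold, 2.90 to 4.34). Vcam1, an adhesion molecule also found on iron-recycling macrophages of the spleen, was at 659 against 249 CPM in females (2.65-fold, 2.09 to 3.35) and at 729 against 334 CPM in males (2.19-fold, 1.73 to 2.76). After equal depth, Vcam1 was detected in 41.2% against 10.6% of these cells in females and in 48.7% against 28.4% in males. Nrp1, a co-receptor for VEGF and semaphorins, had ratios of 3.81 (2.31 to 6.43) and 2.50 (1.54 to 4.06). Ms4a7 was at 2057 against 951 CPM in females (2.16-fold, 1.91 to 2.45) and at 1925 against 853 CPM in males (2.26-fold, 1.95 to 2.60).

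Further genes of this side were picked after their values had been seen. Igf1 had ratios of 1.80 (1.21 to 2.68) in females and 4.50 (2.84 to 7.25) in males, Abca1 1.86 (1.19 to 2.90) and 2.53 (1.64 to 3.93), and Trf 1.49 (1.19 to 1.86) and 2.01 (1.57 to 2.56). Trem2 had 1.61 (1.23 to 2.09) and 1.82 (1.38 to 2.39), and Apoe 1.30 (1.27 to 1.34) and 1.99 (1.93 to 2.05). Hpgds is left out here, because a member without Mmp12 has to reach the required sum from Slc40a1 and Hpgds alone.

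Lgals3, Lsp1, Fxyd5, Glipr1, Crip1 and Ccr2 were on the Mmp12 side. Lgals3 was at 1190 CPM with Mmp12 and 603 CPM with Slc40a1 in females, and at 1270 and 598 CPM in males, which gave ratios of 0.51 (0.42 to 0.60) and 0.47 (0.38 to 0.57). Lsp1, an actin-binding protein of leukocytes, had ratios of 0.49 in both libraries (0.38 to 0.63 and 0.35 to 0.66). Fxyd5 had 0.53 (0.45 to 0.63) and 0.48 (0.38 to 0.60), Glipr1 0.47 (0.30 to 0.71) and 0.51 (0.33 to 0.77), and Crip1 0.38 (0.32 to 0.44) and 0.67 (0.57 to 0.80). Ccr2 had 0.51 (0.33 to 0.77) and 0.64 (0.40 to 1.01). Lpl was also higher with Mmp12, with ratios of 0.72 (0.57 to 0.90) and 0.66 (0.52 to 0.83). Of the lipid genes that were higher in members as a whole, Abca1 was thus on the Slc40a1 side and Lpl on the Mmp12 side.

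MHC class II-low macrophages, which were outside the gate, offered other cells of the same library in which to look at the split. In females, 32 such cells had Slc40a1 and no Mmp12 and 29 had Mmp12 and no Slc40a1. These groups also differed in MHC class II level, with medians of 0.557 and 3.78 UMIs per 1000, and in depth, with medians of 3567 and 4450 UMIs. Selenop was 5.72-fold (4.22 to 7.88), Vcam1 7.47-fold (4.73 to 12.3), Nrp1 7.34-fold (2.81 to 24.3), Ms4a7 3.26-fold (2.50 to 4.27) and Abca1 4.81-fold (2.35 to 10.8) higher with Slc40a1. Crip1 and Lsp1 were lower, at 0.29-fold (0.22 to 0.37) and 0.22-fold (0.13 to 0.35). Lgals3, on the Mmp12 side in members, was at 1.08-fold (0.81 to 1.44). Of the 9 genes called higher by this split in members, 3 had enough UMIs there and all 3 were higher, and of the 4 called lower, 0 had enough. Of the 16 genes ranked by the other split, Mmp12 only against no Mmp12, 14 had at least 20 UMIs there and all 14 went the same way. Of 652 genes compared there, 39.7% were higher on the Slc40a1 side and 60.3% were lower. Those 652 genes were taken at a different minimum of UMIs, so their shares are no measure for the 14. The part of MHC class II level and of depth in these directions was not tested. In males the groups held only 8 and 2 cells. Of the 16 genes, 3 had at least 20 UMIs there and 2 went the same way, Selenop being the other.

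**Figure D4:**
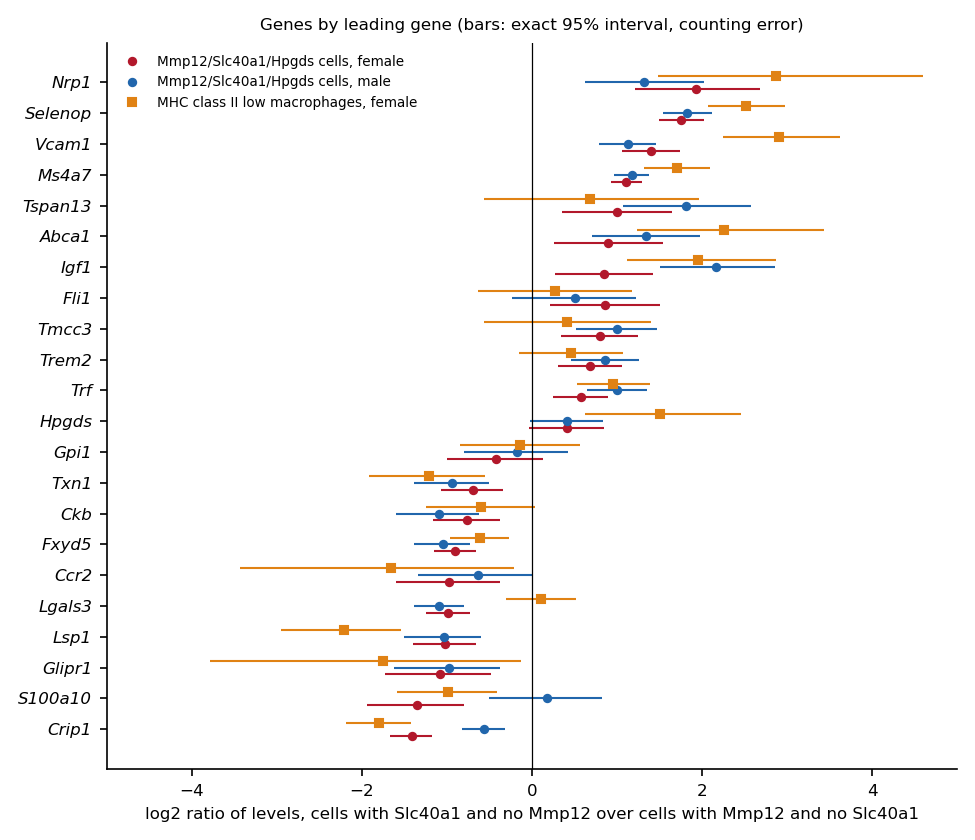
Log2 ratio of levels (x axis) between cells with Slc40a1 and no Mmp12 and cells with Mmp12 and no Slc40a1, by gene (y axis), for female and male members and female MHC class II-low macrophages, with exact 95% intervals of counting error. Selenop, Vcam1, Nrp1 and Ms4a7 lie to the right in all 3 groups, and Lsp1, Glipr1 and Crip1 to the left.

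Between the sexes, Trem2 in members had a female to male ratio of 1.14 (0.99 to 1.33), with an interval that included 1. Ms4a7 had a ratio of 1.12 (1.04 to 1.20). Mmp12, Slc40a1 and Hpgds had ratios of 1.04, 1.04 and 0.85, which are descriptions only, since the rule set the same minimum for them in both libraries. Of 5436 genes, 41 (0.754%) were at least 2-fold higher in female members and 12 (0.221%) at least 2-fold lower. Apart from Xist, at 1950 against 0 UMIs, the genes furthest up, Gzma, Ccl5, Nkg7, Klrk1, Klra7, Klrb1c, Klre1 and Gzmb, with log2 ratios from 2.24 to 4.42, are genes of natural killer (NK) cells. A total of 15 female and 1 male members held 3 or more UMIs of NK markers, and the female ones had a median of 10046 UMIs. All 7 NK markers were detected in members, with a sum of 499 CPM (females) and 81.8 CPM (males), and of 630 and 31.9 CPM in Tmem119-set cells. Without those cells, 10 genes were at least 2-fold higher in females, and log2 ratios fell to 0.68 for Gzma, 0.57 for Ccl5 and 0.04 for Nkg7.

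Of the genes that remained furthest up without the NK-positive cells, S100a8 and S100a9 had log2 ratios of 1.57 and 1.53, with their UMIs mostly in 1 cell per library, and the immunoglobulin gene Igkc was 3.46-fold higher (1.93 to 6.61). AA467197, a gene induced in activated macrophages, was at 138 CPM in female and 41.3 CPM in male members once cells with 3 or more NK UMIs were left out (3.34-fold, 2.36 to 4.83). Ecm1, a secreted matrix protein, was at 75.8 against 25.6 CPM (2.96-fold, 1.88 to 4.80), and Klf9, a glucocorticoid-induced transcription factor, at 47.4 against 12.8 CPM (3.70-fold, 1.98 to 7.43). Mgl2, a galactose-type lectin, was lower in females, at 116 against 266 CPM (0.43-fold, 0.35 to 0.54), as was Dnase1l3, a secreted nuclease, at 24.6 against 81.7 CPM (0.30-fold, 0.19 to 0.47), and H2-M2, at 89.0 against 204 CPM (0.44-fold, 0.34 to 0.56). For AA467197, Klf9, Ecm1 and Mgl2 the same directions were seen outside the members, in cells of the same libraries. In Tmem119-set cells the female to male ratio was 4.76 (3.11 to 7.48) for AA467197, 4.58 (2.27 to 9.99) for Klf9, 3.15 (1.84 to 5.56) for Ecm1 and 0.33 (0.24 to 0.47) for Mgl2.

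Part of the list below 1 rested on few cells. In male members, 96.9% of Igfbp5 UMIs, 93.9% of Fn1, 86.9% of Pclaf and 91.7% of Ly6c1 lay in 5 cells. The 5 endothelial markers summed to 107 CPM in male members, with 76.4% in 5 cells, and to 78.1 CPM in female members. In Tmem119-set cells they summed to 170 CPM in males and 50.7 CPM in females, and their part in these values was not tested. Hsd3b1, a steroid-making enzyme of adrenal cortex cells, was 3.10-fold higher in females without cells of 3 or more NK UMIs (1.80 to 5.59). The 6 adrenocortical markers were all detected in members and summed to 210 CPM in females and 138 CPM in males, with 217 and 235 CPM in Tmem119-set cells, and their part in the result was not tested. With 1 library per sex, sex cannot be told apart from the library.

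**Figure D5:**
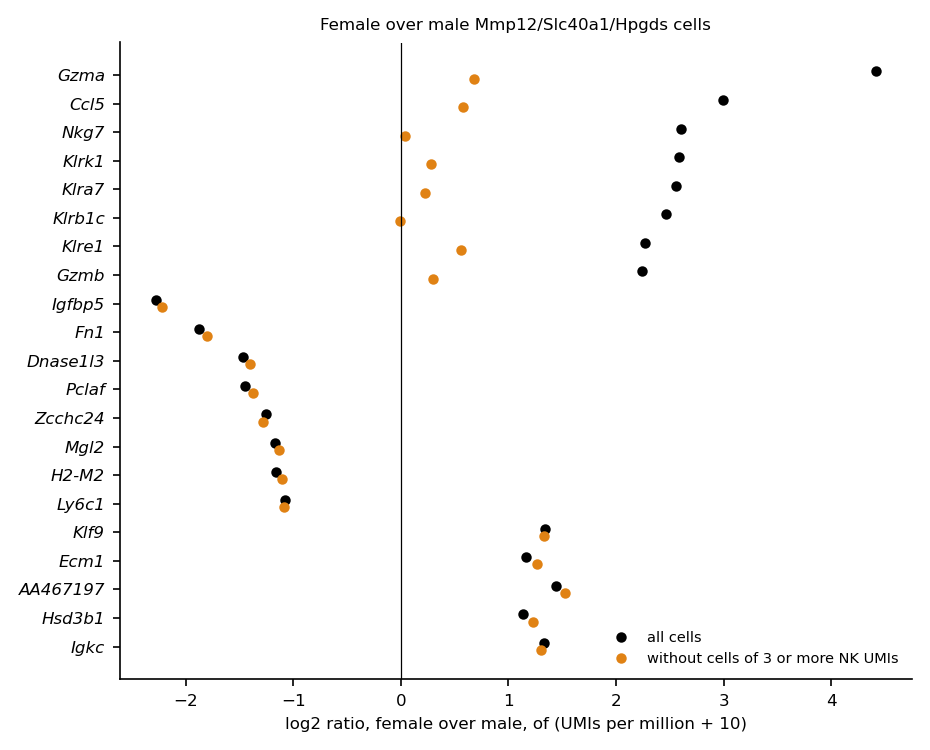
Log2 ratio, female over male, of (CPM + 10) in Mmp12/Slc40a1/Hpgds cells (x axis) by gene (y axis), over all cells (black) and without cells holding 3 or more NK UMIs (orange). Gzma falls from 4.42 to 0.68, whereas AA467197, Klf9 and Ecm1 stay above 1 and Mgl2 and Dnase1l3 below −1.

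Markers of other leukocytes were present in members to different extents, with those of NK cells and neutrophils given above. Dendritic cell markers summed to 14.6 CPM in female and 19.5 CPM in male members, with Flt3 and Xcr1 at 0 in females and Ccr7 at 0 in males. B cell markers other than Cd79a, which the gate set to 0, summed to 253 and 250 CPM in members and to 283 and 302 CPM in Tmem119-set cells, and 140 of 235 female and 119 of 205 male members had a UMI of the list. T cell markers summed to 48.0 and 17.5 CPM. Monocyte markers summed to 370 and 330 CPM in members and to 493 and 138 CPM in Tmem119-set cells. Genes of Lyve1-high macrophages, limited by the gate, summed to 12.2 and 20.5 CPM. No fibroblast marker exceeded a few UMIs, with a sum of 4.07 and 3.90 CPM.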

How the data were processed

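Single-cell RNA sequencing of live CD45+ adrenal leukocytes gave 1 female and 1 male library. The deposited values are raw UMI counts per gene and barcode, which the authors made with Cell Ranger (version 4.0.0 per the file headers, build mm10). They were used as deposited. Cells were chosen by the thresholds given above, and doublets were left in except under an alternative. For each library and group of cells, the counts of a gene were added up and scaled to counts per 1000000 UMIs of that group (CPM). Log2 ratios used CPM plus 10, and ratios printed with intervals used the counts themselves. A gene was compared with at least 50 UMIs over both groups and called at 2-fold. Detection shares were taken after drawing 1000 UMIs per cell, with shallower cells left out (10 of 235 female and 20 of 205 male members). Intervals were Clopper-Pearson, Newcombe, exact Poisson and exact conditional binomial, at 95%.

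Named genes were, outside the rule, the 12 highest and 12 lowest against Tmem119-set cells by the smaller log2 ratio of both libraries, the 8 highest and 8 lowest between the sexes and within members, the genes of 4 lists, and examples from other lists. The members, the lists and the rule were chosen with earlier results of these data known, and the split by Slc40a1 and Mmp12 was added after values had been seen. Alternatives changed the mitochondrial ceiling, doublet removal (Scrublet in scanpy 1.11.5), the leading sum, the depth, the CPM added, the minimum of UMIs and the comparison cells. The scripts were tested on simulated counts and ran in Python 3.11.15 with scipy 1.17.1. Gene coordinates came from GENCODE on the same build.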

Additional observations from a re-analysis of the deposited data

Results flagged for a closer look

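Of 234 genes of the lists compared between members and Tmem119-set cells, 4 went in opposite directions in the female and male library with both intervals of counting error clear of 1. The difference between the libraries was not tested. Fabp4, a fatty acid carrier, had a log2 ratio of 0.93 in females and −0.97 in males, and 71.7% and 50.5% of its member UMIs lay in 5 cells. H2-DMb1, which loads peptide onto MHC class II, had 0.25 and −0.20. S100a4 had −1.37 and 2.38, and S100a6 had −1.40 and 2.11. In male members, 87.8% of S100a4 and 67.9% of S100a6 UMIs lay in 5 cells.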

How the results depend on the processing

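No paired analysis was possible because each sex had 1 library and the labels carry no shared replicate number. Of 1430 values of named genes under 14 alternatives (13 planned), 1398 kept the sign they have in the report, 161 moved outside their counting interval, and 13 that were at least 2-fold as reported changed sign. The other changes of sign were in values under 2-fold. The female minus male difference in the share of members among gated cells kept its sign under each alternative for which the share was retaken. It was not retaken where only the gene levels, the minimum of UMIs, the comparison cells or the S100a8 and S100a9 cells were changed. All these shares were of gated cells. Over all cells that passed the first filters the direction was the other way, at 6.16% in females and 8.19% in males. The share itself was 34.4% in females and 26.0% in males with a leading sum of at least 3, 36.4% and 27.6% with the sums taken on 2000 UMIs drawn per cell, and 49.5% and 40.5% without cells under 2000 UMIs. The number of genes at least 2-fold higher than in Tmem119-set cells in both libraries, 5 as reported, was 3 with a mitochondrial ceiling of 5%, 2 with the highest Scrublet scores removed (13 female and 5 male members), 8 with a leading sum of at least 3, 2 with 2000 UMIs drawn, 10 with 1 CPM added, 2 with 50 CPM added, 0 with at least 200 UMIs, 8 with the mean over cells and 1 against all other gated cells. In that last comparison 1 gene was lower. The number higher in females, 41 as reported, was 16 with the highest Scrublet scores removed, 18 with 2000 UMIs drawn, 10 without cells of 3 or more NK UMIs, 62 and 11 with 1 and 50 CPM added, and 8 and 77 with at least 200 and at least 10 UMIs. The number lower in females, 12 as reported, was 28 and 2 with 1 and 50 CPM added, 2 and 27 with at least 200 and at least 10 UMIs, and 32 with the mean over cells.

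Against Tmem119-set cells, S100a8 turned to −0.30 in males with the highest Scrublet scores removed and to −0.30 without cells of 10 or more S100a8 and S100a9 UMIs, an alternative added after seeing the data. S100a9 turned to −0.11 in females with the 5% ceiling, to −0.00418 in males with the Scrublet scores removed, and to −0.0592 (females) and −0.0191 (males) without those cells. Plac8 turned in females to −0.68 with a leading sum of at least 3, −0.41 with 2000 UMIs drawn and −0.53 against all other gated cells. Between the sexes, Klrb1c was at −0.00489 without those NK-positive cells, S100a8 at −2.26 and S100a9 at −2.39 with the 5% ceiling, and S100a9 at −0.26 without the S100a8 and S100a9 cells. The cause was not tested.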
